A study of Oryza sativa with 12 samples.

Results

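The genes described here are the rice expansins and the enzymes that build, modify or supply wall polysaccharides. A gene belonged to them if its symbol or a synonym in the gene table, without a leading Os, was one of the family names EXPA, EXPB, EXLA, EXLB, CESA, CSLA, CSLC, CSLD, CSLE, CSLF, CSLH, XTH, BC1L or RGP followed by a number. The gene table held 92 such genes of 39387. Of these, 64 were paired with a probe set that matched no other gene, 79 probe sets among 57381 on the array. After a filter on low values 63 probe sets of 52 genes were tested. The other 16 read at or below 73.9 on every array, the highest reading of the dim reporter control probe sets, and genes without a probe set were not analysed here.

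The samples were shoots and leaves of seedlings with 4 leaves, hybridised to 12 GeneChip arrays, 1 array per sample. In the cultivar ZH11, lines OE2 and OE28 carried an overexpressed OsMYB30, a MYB transcription factor, and were set against 1 control line. In the cultivar Huayang, mutant1 and mutant2 were homozygous for an osmyb30 mutation and were set against 1 wild type line. One sample of each of the 6 lines was taken before treatment and 1 after 6 h in a chamber at 4 °C with 14 h of light and 10 h of dark. The promoter of the transgene, the kind of mutation and any pooling of plants were not given in the sources used here. Nothing in the labels says that the samples of a group were repeated independently beyond the different lines, so p-values measure the spread between these arrays. No untreated seedlings were sampled at 6 h, so cold and time of day cannot be told apart.

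A growing grass cell is held by cellulose microfibrils in a matrix of arabinoxylan, mixed-linkage glucan and a little xyloglucan. Cellulose synthases (CESA) spin the microfibrils at the plasma membrane, and the related cellulose synthase-like (CSL) enzymes make matrix backbones. Alpha-expansins (EXPA) and beta-expansins (EXPB) loosen the bonds between these polymers without cutting them, which lets a wall stretch under turgor.

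Array medians lay between 34.7 and 37.2. Principal components 1 and 2 carried 45.5% and 33.0% of the variance between arrays. Leaf markers CAB2R and RCA summed to between 89237.3 and 93978.6 on every array, and of their 6 probe sets 1, of CAB2R, was called in the comparisons given below, lower by -0.12 (SE 0.04, adjusted p 0.0477) after cold in Huayang. EXPB10, a pollen expansin, read 8.1 to 10.6 throughout. A reporter control probe set read 11860.8 to 17781.9 in the overexpression and mutant lines, 18.6 to 64.3 in the ZH11 control, and 2658.5 to 3821.8 in the line labelled wild type. Where a fit without the wild type arrays is possible, the calls it loses are therefore named. Changes are differences of log2(intensity + 16) with standard errors (SE) from limma, a scale that understates changes of dim probe sets. Calls needed an adjusted p (Benjamini-Hochberg over 34355 probe sets) below 0.05.

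Expansins were the wall genes that changed most after 6 h of cold. Across the 6 lines, 10 of 17 alpha- and beta-expansin genes with a tested probe set were called lower and 1, EXPB17, higher on a dim probe set. By probe set these were 10 lower and 1 higher of 19, where 20.2% and 14.9% of all tested probe sets were called. The beta-expansin EXPB7 fell the most, 4.46-fold. The cellulose synthase-like gene CSLD2 and the COBRA-like gene BC1L9 rose. Cellulose synthases fell by small amounts or were not called.

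Over all wall genes, 25 probe sets were called lower and 11 higher of 63 in the fit of 6 cold arrays against 6 arrays taken before. Across the array, 20.2% of tested probe sets were called lower and 14.9% higher, together 35.1%, against 57.1% of the wall probe sets. The median change of the wall probe sets was -0.11, and that of all tested probe sets 0.01. Of the 25 lower probe sets 21 fell in every line, and of the 11 higher ones 10 rose in every line. The calls were made on these same lines, so this agreement is not separate support. Leaving out each array in turn kept 27 of the 36 calls, 19 lower and 8 higher. Those lost at least once were CESA3, CESA5, CESA8, CSLA5, CSLC9, CSLD4, RGP1 and a probe set each of EXPB17 and LOC4346614. Without both wild type arrays the fit called 19 lower and 10 higher, with 29.8% of all probe sets called. It lost the calls of CESA3, CESA5, CESA8, CSLA5, CSLC9, CSLD4, RGP1 and the lower call of LOC4346614, and gained a higher call of the second probe set of CESA1.

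**Figure D1:**
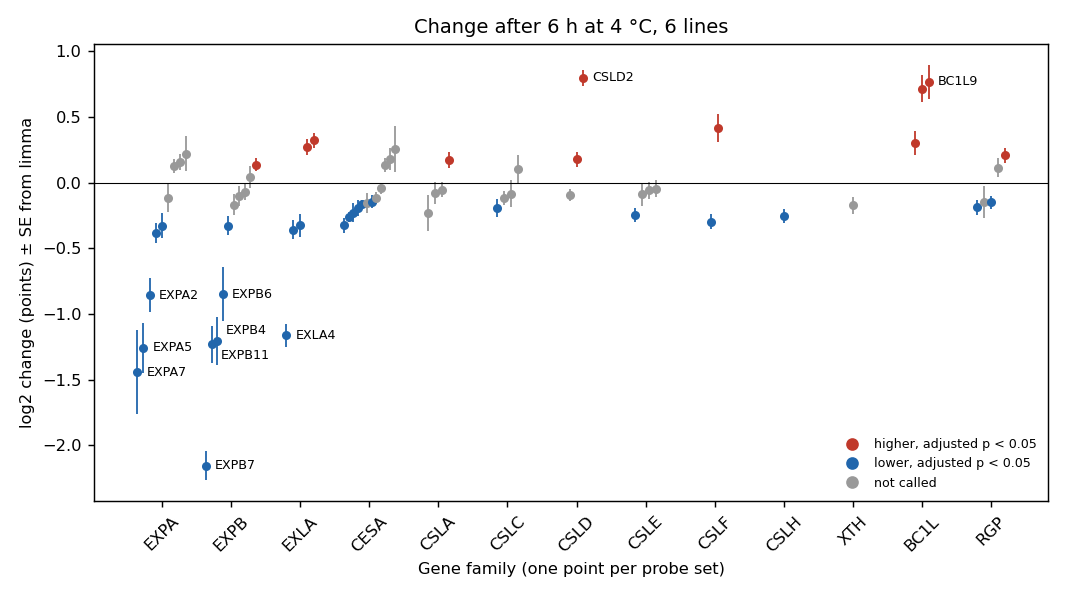
Change in log2(intensity + 16) after 6 h at 4 °C (y axis) for the 63 tested probe sets, grouped by family (x axis); points are limma estimates over 6 lines, bars are ± SE, and colour marks calls at an adjusted p below 0.05. The largest decreases were in EXPA, EXPB and EXLA, led by EXPB7 at -2.16, and the largest increases were CSLD2 at 0.80 and BC1L9 at 0.77.

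Among beta-expansins, EXPB7 read 543.5 to 1021.3 before cold (median 744) and 103.5 to 174.6 after it (median 156). Every line lay far lower after cold, and the groups did not overlap. The change was -2.16 (SE 0.11), 4.46-fold lower, with a limma adjusted p of 8.04e-09. EXPB11 read 987.9 to 1548.8 before and 436 to 732.4 after, again without overlap, and changed by -1.23 (SE 0.14, adjusted p 1.73e-05). EXPB4 read 1221.7 to 1966.9 before and 408.5 to 988.2 after, with no overlap. Its change was -1.21 (SE 0.18, adjusted p 0.000204), from a probe set of a type that can match several related transcripts. EXPB6 read 421.8 to 737.3 before and 181.3 to 450 after. The control after cold read above OE2 before cold, so the ranges overlapped, while each line by itself read lower after cold, and the change was -0.85 (SE 0.21, adjusted p 0.0063).

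Neighbouring beta-expansin genes did not all move by the same amount. In the gene table EXPB6, EXPB2, EXPB3 and EXPB4 follow each other on chromosome 10. EXPB3 changed by -0.33 (SE 0.07), with 6344.2 to 8237.1 before and 5168.6 to 6552.5 after. EXPB2 changed by -0.17 (SE 0.08) and was not called by limma (adjusted p 0.139). On chromosome 3, EXPB8 is separated from EXPB7 by 1 gene, and its change was -0.10 (SE 0.08, adjusted p 0.321), from readings that were dim on every array. EXPB9 was not called either, at -0.07. The probe sets of EXPB17 gave 0.04, not called, and 0.14, called higher by limma with dim readings on every array.

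Among alpha-expansins, EXPA7 read 559.1 to 1342.9 before cold (median 662) and 72.5 to 754.7 after it (median 305). The ZH11 control after cold read higher than several lines before cold, so the groups overlapped, although each of the 6 lines fell. The change was -1.44 (SE 0.32, adjusted p 0.00374). A second probe set of EXPA7 read 22.2 to 35.8, dim on all arrays, and gave 0.16 without a call. EXPA5 read 241.1 to 313.1 before and 45.5 to 172.4 after, without overlap. Its change was -1.26 (SE 0.19, adjusted p 0.000182). With readings below the dim limit set to that limit it was -1.15, at least 2.21-fold lower.

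EXPA2 read 1825.2 to 3189.4 before and 1067.3 to 1680.9 after, without overlap, and changed by -0.86 (SE 0.13, adjusted p 0.000237). EXPA6 changed by -0.33 and EXPA16 by -0.38, both called lower. EXPA16 was dim on every array, so the size of its change is not established. EXPA6 was dim on 6 of 12 arrays, among them all 3 Huayang arrays after cold. EXPA10, known for its induction by aluminium in rice roots, was not called at -0.12 (SE 0.11). EXPA1 and EXPA26 were not called either, at 0.22 and 0.13. The other alpha-expansins with a probe set did not pass the filter.

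The expansin-like A genes, whose products resemble expansins and have no established loosening activity, moved both ways. EXLA4 read 140.2 to 201.3 before cold and 58.8 to 81.8 after it, and the groups did not overlap. After cold all Huayang arrays and, in ZH11, those of OE28 and the control were at or below the dim limit. Its fall was therefore at least 2.04-fold, from a fitted change of -1.16 (SE 0.09, adjusted p 3.42e-07). EXLA3 and EXLA1 were called lower, at -0.36 and -0.32. Both probe sets of EXLA2 were called higher, at 0.32 (SE 0.06) and 0.27 (SE 0.06). One of them has a name marking probes shared with other transcripts.

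**Figure D2:**
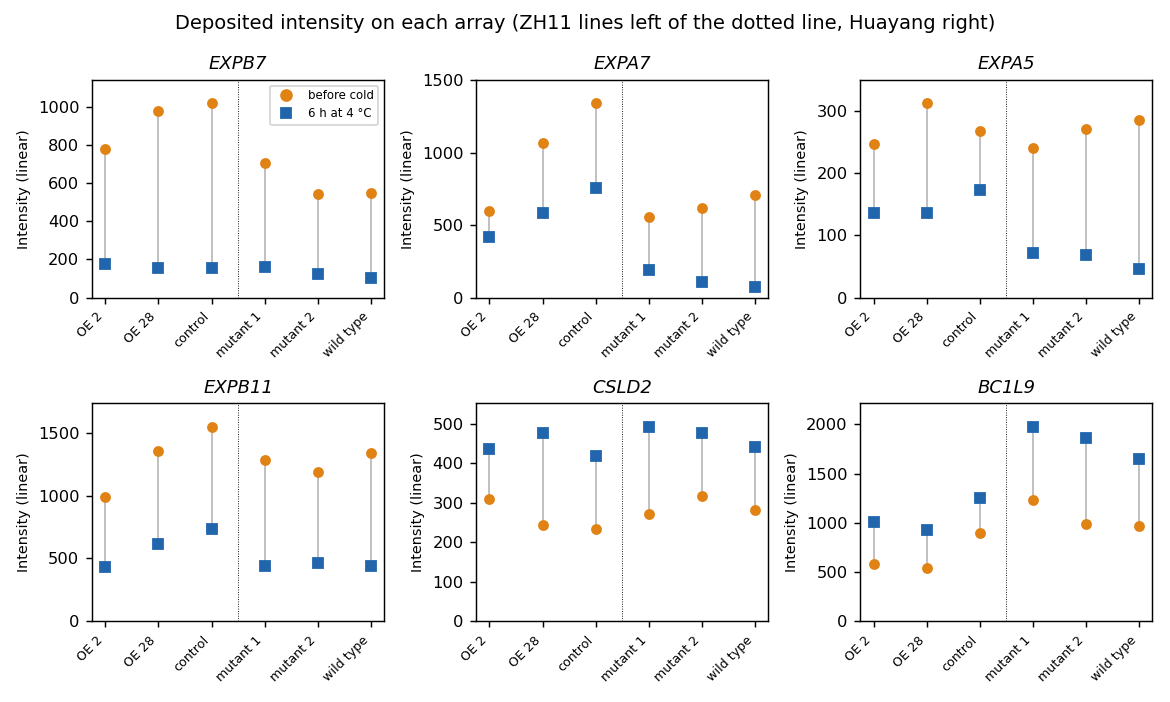
Deposited intensity (y axis, linear, from 0) of 6 wall genes in each of the 6 lines (x axis); circles are arrays before cold, squares arrays after 6 h at 4 °C, and a grey line joins the arrays of 1 line. EXPB7 lay between 543.5 and 1021.3 before and 103.5 and 174.6 after cold, whereas CSLD2 and BC1L9 were higher after cold in every line.

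CSLD2, in a family of synthases tied to walls of tip-growing and dividing cells, read 233.8 to 317.8 before cold and 418.1 to 492.4 after it. All cold arrays lay above all earlier ones, with a change of 0.80 (SE 0.06, adjusted p 3.38e-07). CSLF2, of the family that makes mixed-linkage glucan, was called higher at 0.42 (SE 0.11), from 54.8 to 99.4 before to 84.3 to 122.6 after, with overlap. CSLF6, the main synthase of that glucan in rice, was called lower at -0.30 (SE 0.06, adjusted p 0.00184). Its readings of 2192.1 to 2428.7 before and 1629.5 to 2193.8 after overlapped only through the ZH11 control array after cold. CSLH1, whose barley counterpart also makes mixed-linkage glucan, was called lower at -0.25 (SE 0.05).

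BC1L9 belongs to the COBRA-like proteins, named after the rice gene BRITTLE CULM1, which is needed for ordered cellulose. It read 536.7 to 1228.4 before cold and 922.6 to 1975.8 after it. The groups overlapped, while each line rose, by 0.45 to 0.94 on the log2 scale. Its probe sets gave 0.77 (SE 0.13, adjusted p 0.000545) and 0.72 (SE 0.10, adjusted p 0.000107). BC1L6 was called higher at 0.30 with dim readings throughout.

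Cellulose synthase genes of both wall types were called lower by small amounts. Of the primary wall subunits, CESA1 changed by -0.17 (SE 0.04), CESA3 by -0.14 (SE 0.05) and CESA8 by -0.19 (SE 0.06), and all were called lower on their brighter probe set. Dimmer second probe sets of CESA1 and CESA3 gave 0.18 and 0.26, neither called. In the limma fit without both wild type arrays the CESA1 probe sets were called in opposite directions. The brighter gave -0.16 (adjusted p 0.0139) and the dimmer 0.23 (adjusted p 0.0387). Of the secondary wall subunits, CESA7 changed by -0.32 (SE 0.06, adjusted p 0.000696) and CESA9 by -0.26 (SE 0.04, adjusted p 0.000252). CESA4 changed by -0.12 (SE 0.05) and was not called (adjusted p 0.0588). With line as a random block, which pairs the arrays of a line, it was called (adjusted p 0.0139).

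The mannan synthase-like gene CSLA1 changed by -0.23 (SE 0.13) and was not called (adjusted p 0.198). With line as a fixed block the adjusted p was 0.0121. CSLA5 was called higher at 0.17 (SE 0.06), a call lost in the values as deposited and with median centring. XTH8, a xyloglucan endotransglucosylase/hydrolase, was not called at -0.17 (adjusted p 0.0576), and was called with line as a random block (adjusted p 0.0285). CSLE2 was called lower at -0.24 and CESA5 and CSLC9 at -0.23 and -0.19. CSLE1 was not called at -0.06, CSLC7 at 0.10 and CSLC1 at -0.11. CSLD4 was called higher at 0.18 with dim readings throughout.

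Proteins of the RGP family interconvert the ring forms of UDP-arabinose for arabinoxylan. RGP1 was called lower at -0.19 (SE 0.06), and RGP3 was not called at -0.15 (SE 0.12). The locus LOC4346614 entered through the synonym RGP1, a name also borne by a small GTP-binding protein, so it may not be a wall gene. Its probe sets were called in opposite directions, at -0.15 and 0.21. The second call was lost in the values as deposited (0.12, adjusted p 0.104) and with median centring (0.10, adjusted p 0.205).

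Some genes outside these families that act on the same walls were called too. In this comparison 20.2% of all tested probe sets were called lower and 14.9% higher, together 35.1%, and each list below is small. Of 7 tested probe sets of 6 secondary wall partner genes, 5 were called lower and 1 higher. GT43A, of the glycosyltransferase family that extends xylan, changed by -0.85 (SE 0.06), and IRX9 by -0.37 (SE 0.13). The gene BC1 at LOC4333114 changed by -0.30 (SE 0.06). IRX9L was called in both directions, at 0.36 and -0.19 on its 2 probe sets. Sucrose synthases, which supply UDP-glucose, had 2 of 7 probe sets called lower and 0 higher. Among 6 genes named as glucanases or cellulases, GLU1 rose by 0.90 (SE 0.09), GLU13 fell by 0.63 (SE 0.10), and 1 more was called in each direction. Of 10 genes of gibberellin and brassinosteroid growth control, 2 were called higher, led by BZR1 at 0.67, and 3 lower, led by DWARF at -0.51.

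Root markers moved with these decreases. All probe sets of the root list, including those that did not pass the filter, summed to 563.1 to 808.7 before cold and 339 to 513.9 after it. Of its 4 tested probe sets, that of CSLD1 is also a wall gene. PIP2-5, NRAMP5 and Lsi1 were called lower, at -0.93, -0.47 and -0.35. Markers of dividing cells, tested or not, summed to 518.1 to 668.9 before and 481 to 656.7 after. Of their 8 tested probe sets 1 was called higher and 0 lower, with a median change of -0.12. CDKB2-1 read 63.1 to 80.5 before cold and 89 to 125.7 after it, higher in every line. The part of either list in the decreases was not tested, and in bulk tissue fewer cells of a type and less RNA per cell cannot be told apart.

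Within each cultivar the expansins again led the decreases. In the 3 ZH11 lines 12 wall probe sets were called lower and 6 higher of 63, where 12.6% and 7.46% of all probe sets were called, together 20%. With line as a random block the counts were 20 lower and 11 higher, and 35.1% of all probe sets were called. Leaving out OE2 after cold left 8 lower and 3 higher, and leaving out each array in turn kept 7 of the 18 calls, on EXPB7, EXPB11, EXLA4, EXPA2, EXPA5, CSLD2 and the dimmer probe set of BC1L9. The largest 5 decreases were EXPB7 at -2.30 (SE 0.15), EXPB11 at -1.05 (SE 0.19), EXLA4 at -0.95 (SE 0.09), EXPA2 at -0.86 (SE 0.19) and EXPB4 at -0.79 (SE 0.21). After cold EXLA4 was below the dim limit in OE28 and the control, so the size of its fall is not established. The increases were CSLD2 at 0.84 (SE 0.09), BC1L9 at 0.72 (SE 0.19) and 0.49 (SE 0.11), EXLA2 at 0.35 and 0.30, and CESA2 at 0.26, dim throughout. EXPA5 was called lower at -0.71 (SE 0.16), whereas EXPA7 (-0.65, SE 0.34) and CSLA1 (-0.16, SE 0.20) were not called. Of the named cellulose synthases CESA9 was called, at -0.25 (SE 0.06).

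In the 3 Huayang lines 20 were called lower and 4 higher, where 12% and 7.25% of all probe sets were called, together 19.3%. Without both wild type arrays the counts were 10 lower and 2 higher, and 11.4% of all probe sets were called. The calls lost without them were those of CESA1, CESA5, CESA6, CSLH1, EXLA2, EXLA3, EXPA2, EXPA16, EXPB3, EXPB6, XTH8 and the brighter probe set of BC1L9. Leaving out mutant1 before cold gave 12 lower and 3 higher. Leaving out each array in turn kept 14 of the 24 calls, on EXPA2, EXPA5, EXPA7, EXPB4, EXPB7, EXPB11, EXLA4, CSLD2, CSLF6, CESA7, CESA9, XTH8 and both probe sets of BC1L9. The largest decreases were EXPA7 at -2.24 (SE 0.34), EXPB7 at -2.01 (SE 0.15), EXPA5 at -1.81 (SE 0.16), EXPB4 at -1.62 (SE 0.21) and EXPB11 at -1.41 (SE 0.19). In the fit without the wild type these were -1.85, -1.93, -1.56, -1.36 and -1.37 in the same order, all still called. EXPA5 was at or below the dim limit on all 3 cold arrays, so its fall was at least 2.99-fold. BC1L9 rose by 0.81 (SE 0.19) and 0.95 (SE 0.11), CSLD2 by 0.76 (SE 0.09) and EXLA2 by 0.29 (SE 0.09). Without both wild type arrays the adjusted p of the brighter BC1L9 probe set was 0.0689 and that of EXLA2 0.0706, and EXLA2 also lost its call in the values as deposited (adjusted p 0.0874) and with median centring (adjusted p 0.128). CESA7 was called lower at -0.44 (SE 0.07), CESA9 at -0.28 (SE 0.06) and CESA1 at -0.18 (SE 0.05), and CSLA1 was not called at -0.30 (SE 0.20).

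The difference between the cultivars' responses was then tested. No wall probe set was called in limma's interaction, where 0.00873% of all probe sets were called higher and 0.0931% lower, together 0.102%. An unadjusted p below 0.05 was found there for 10 of the 63 and for 1624 of all 34355. EXPA5 in ZH11 read 247.4, 313.1 and 268.8 before cold and 135.6, 135.8 and 172.4 after it in OE2, OE28 and the control. In Huayang it read 241.1, 271.7 and 285.2 before and 71.3, 68.6 and 45.5 after in mutant1, mutant2 and the wild type. The levels before cold overlapped, and those after cold did not. The Huayang response minus the ZH11 response was -1.10 (SE 0.23, adjusted p 0.167). With line as a random block the adjusted p was 0.0282, with a fixed block 0.0599, and with dim readings set to the limit the difference was -0.87. Leaving out the wild type, whose cold reading was the lowest, gave -0.85 (SE 0.21, adjusted p 0.65).

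EXPA7 gave a larger difference with a larger error, -1.59 (SE 0.48, adjusted p 0.699). Its 3 Huayang lines changed by -1.42, -2.29 and -3.00 and its ZH11 lines by -0.36, -0.77 and -0.81. EXPB4 gave -0.83 (SE 0.29, adjusted p 0.912). In the fit without the wild type EXPA7 gave -1.20 (SE 0.52) and EXPB4 -0.57 (SE 0.31), and no wall probe set was called. For EXPB7 the difference was 0.29 (SE 0.22), for BC1L9 0.09 (SE 0.27) and for CSLA1 -0.15 (SE 0.28). None of CESA1, CESA3, CESA4, CESA7, CESA8 and CESA9 was called in this interaction, and CESA7 had the lowest of their values at -0.24 (SE 0.10).

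**Figure D3:**
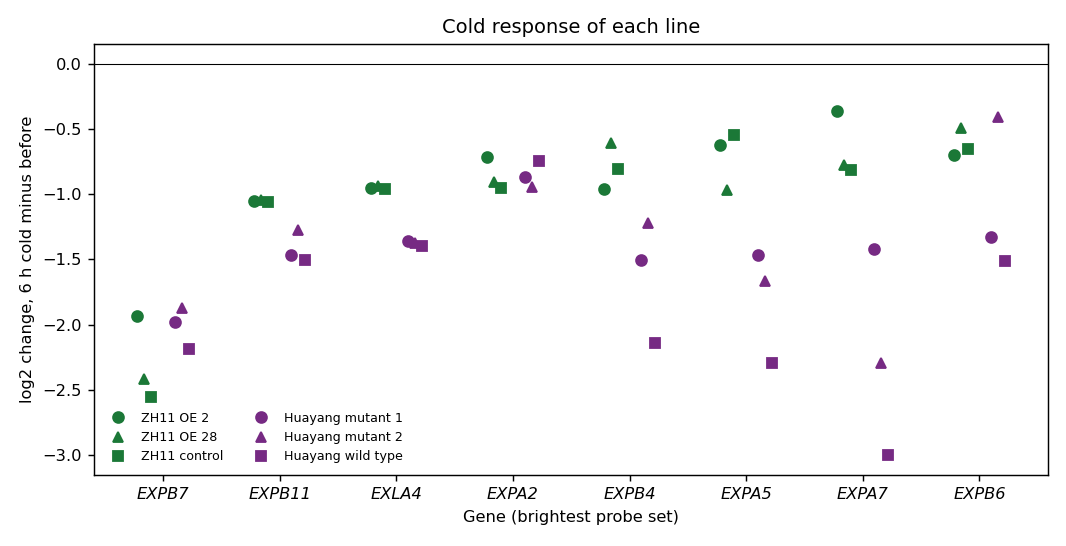
Cold response of 8 expansin genes (x axis) as the log2 change of each line, 6 h at 4 °C minus before (y axis); green marks are ZH11 lines and purple marks Huayang lines, 1 mark per line. EXPA5 lay between -0.97 and -0.55 in ZH11 and between -2.29 and -1.46 in Huayang, and EXPB7 between -2.55 and -1.88 over all lines.

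The design next sets overexpression of OsMYB30 against the control. In lines OE2 and OE28 the mannan synthase-like gene CSLA1, RGP3 and BC1L9 read lower than in the ZH11 control, each about 1.5-fold as the mean of both times. These 3 probe sets were the calls among 63, none higher, where 1.89% of all probe sets were called lower and 2.17% higher, together 4.06%. No expansin or cellulose synthase was called. An unadjusted limma p below 0.05 was found for 16 of the 63 and for 8511 of all 34355 probe sets. The control is 1 array at each time, assumed by the fit to vary like the other groups.

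CSLA1 read 603.1 in OE2 and 544.1 in OE28 before cold, against 772.1 in the control. After cold it read 434.5 and 467.9 against 757.2. All 4 overexpression arrays lay below both control arrays, and the difference was -0.64 (SE 0.08, limma adjusted p 0.00689). RGP3 read 835.3 and 846.5 before cold against 1149.6, and 714.1 and 779.9 after it against 1171.7. These groups did not overlap either, with a difference of -0.60 (SE 0.06, adjusted p 0.0044). Its second probe set, dim on every array, gave 0.21 (SE 0.10) and was not called.

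BC1L9 read 578.2 and 536.7 before cold against 898.8, and 1003.5 and 922.6 after it against 1251.9. Within each time the overexpression arrays were lower, though after cold they lay above the control before cold. The difference was -0.59 (SE 0.09, adjusted p 0.017), and without OE2 after cold the adjusted p was 0.0556. The second probe set gave -0.21 (SE 0.09) and was not called.

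At single times the calls were fewer. Before cold BC1L9 alone was called, at -0.80 (SE 0.13, limma adjusted p 0.0458), where 0.186% of all probe sets were called lower and 0.384% higher, together 0.571%. In the same fit 11 of the 63, and 7256 of all 34355, had an unadjusted p below 0.05. That call was lost in the values as deposited (adjusted p 0.0585), with median centring (adjusted p 0.0579), without the variance trend (adjusted p 0.058) and without any 1 of the 4 overexpression arrays. After cold CSLA1 (-0.74, SE 0.11, adjusted p 0.043) and RGP3 (-0.64, SE 0.09, adjusted p 0.0406) were called, where 0.0815% of all probe sets were called lower and 0.23% higher, together 0.311%. Both calls were lost without any 1 of the overexpression arrays, without either mutant array before cold, without the variance trend and in a fit of the ZH11 arrays alone. CSLA1 also lost its call with median centring (adjusted p 0.0536). In the interaction with cold no wall probe set and no other probe set was called, and 2 of 63 had an unadjusted p below 0.05, as did 1401 of all 34355. Its largest values were CSLC7 at 0.47 (SE 0.23), CESA5 at 0.45 (SE 0.17) and EXLA1 at -0.44 (SE 0.15).

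No expansin passed the test. EXPA7 read 594.2 in OE2 and 1070.2 in OE28 before cold against 1342.9, and 420.2 and 582.9 after it against 754.7. Its difference was -0.73 (SE 0.28, adjusted p 0.157), with OE2 the lower line at both times. EXPB6 gave -0.69 (SE 0.23), EXPB4 -0.53 (SE 0.13), EXPA2 -0.52 (SE 0.16) and EXPB11 -0.51 (SE 0.16), all uncalled. EXPA5 gave -0.23 (SE 0.11) and EXPB7 -0.15 (SE 0.15). EXLA1 read 1042.1 and 1112.4 before cold against 682.5, and 709.4 and 739.3 after it against 664.3. All overexpression arrays lay above the control array of their time, with a difference of 0.32 (SE 0.08, adjusted p 0.0598). It was called higher in the values as deposited (0.38, adjusted p 0.0317) and with median centring (0.42, adjusted p 0.0206). Before cold it gave 0.54 (adjusted p 0.0703), and 0.65 (adjusted p 0.0377) and 0.71 (adjusted p 0.0237) in those scalings. The primary wall CESA1, CESA3 and CESA8 gave -0.03, -0.14 and -0.18, and the secondary wall CESA4, CESA7 and CESA9 gave -0.0018, -0.13 and -0.01, none called.

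Of the 63 wall probe sets 54 had a value below 0 with a median of -0.13, and 51.0% of all tested probe sets lay below 0. The count depended on the scaling: it was 46 in the values as deposited, where 45.6% of all lay below 0, and 43 with median centring, where 38.1% did. The markers of dividing cells summed to 481 to 537.8 in the overexpression arrays and 656.7 to 668.9 in the control. These sums included probe sets that did not pass the filter. Of the 8 that passed, CYCB1-1 at LOC4327547 was called lower at -0.71 and none higher, and in the root list NRAMP5 was called lower at -0.70. Their part in the wall values was not tested. Of the other wall lists, IRX9 (-0.52), GLU11 (-0.51) and the gibberellin oxidase gene GA20OX3 (-0.55) were called lower, and one probe set of IRX9L (0.40) was called higher.

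**Figure D4:**
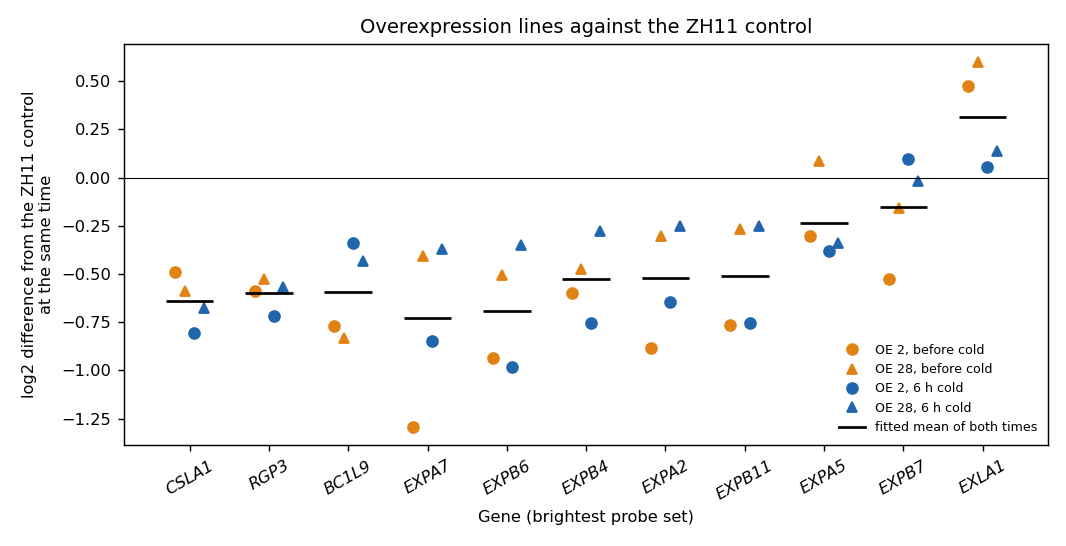
log2 difference of each overexpression array from the ZH11 control array at the same time (y axis) for 11 wall genes (x axis); circles are OE2, triangles OE28, orange before cold, blue after 6 h, and black bars the fitted mean of both times. CSLA1, RGP3 and BC1L9 were below 0 on all 4 arrays with fitted means of -0.64, -0.60 and -0.59, and no expansin in the plot was called.

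The osmyb30 mutants gave no call among wall genes. As the mean of both times 0.0175% of all probe sets were called higher than in the wild type and 0.00873% lower, together 0.0262%. An unadjusted limma p below 0.05 was found for 6 of 63 wall probe sets and for 4310 of all 34355. The largest values were CSLF2 at 0.32 (SE 0.13), CESA3 at 0.29 (SE 0.28) on its dimmer probe set and CSLC2 at -0.27 (SE 0.10). CSLA1 gave 0.09 (SE 0.08), BC1L9 0.15 (SE 0.09), EXPB7 0.23 (SE 0.15), EXPA5 0.13 (SE 0.11) and EXPA7 0.23 (SE 0.28). CESA1, CESA3 and CESA8 gave -0.03, 0.03 and -0.03, and CESA4, CESA7 and CESA9 gave 0.15, 0.05 and 0.02, on their brighter probe sets.

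After cold EXPA7 read 189.7 and 105.2 in the mutants against 72.5, just below the dim limit, in the wild type. Both mutants were higher, by 0.81 (SE 0.39) in the fit, which was not called (limma adjusted p 0.565), where 0.00873% of all probe sets were called higher and 0.0116% lower, together 0.0204%. In that fit 6 of the 63, and 3271 of all 34355, had an unadjusted p below 0.05. EXPB6 gave 0.57 (SE 0.33), also uncalled. EXPA5 was below the dim limit on all 3 Huayang arrays after cold, so no size of a difference there is established. Before cold 0.00291% of all were called, and 1 of the 63 had an unadjusted p below 0.05, against 1736 of all 34355. The largest values there were EXPB4 at -0.42 (SE 0.18), CSLF2 at 0.40 (SE 0.19) and EXPA7 at -0.34 (SE 0.39). In the interaction with cold the largest were EXPA7 at 1.15 (SE 0.55), EXPB4 at 0.78 (SE 0.26) and EXPA5 at 0.73 (SE 0.23), the last resting on those dim readings. There 0 of all probe sets were called, and 2 of the 63 had an unadjusted p below 0.05, against 1006 of all 34355. The wild type is 1 array at each time, with the reporter reading given above, and no fit of these comparisons can be made without it.

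Last, the Huayang lines were set against the ZH11 lines at both times. CESA6, XTH8, the secondary wall cellulose synthases and several expansins read lower in Huayang, and BC1L9 and CSLA5 higher. Of 63 probe sets 22 were called lower and 7 higher, where 7.99% and 8.93% of all probe sets were called, together 16.9%. With line as a random block the counts were 14 and 5, and 10.8% of all were called. Without both wild type arrays they were 17 and 5, with 11.9% called, and the calls of CESA5, CSLA9, CSLC9, EXPB7, LOC4346614, RGP3 and the second probe set of CESA1 were lost. Leaving out each array in turn kept 21 of the 29 calls, 14 lower and 7 higher, and lost at least once CESA5, CSLC9, EXPA5, EXPB8, EXPB17, RGP3 and a probe set each of CESA1 and EXLA2. Genotype differed between the cultivars too, and differences in level and in how well the probes match a cultivar's sequence cannot be told apart.

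The cellulose synthase gene CESA6 read 1965.5 to 2292.9 in ZH11 (median 2113) and 1051.3 to 1618.2 in Huayang (median 1412). The cultivars did not overlap, with a difference of -0.63 (SE 0.08, adjusted p 8.03e-05). XTH8 read 4679.6 to 5458.7 and 3228.3 to 4399.2, also without overlap, and differed by -0.45 (SE 0.07, adjusted p 0.000364). CESA4 was called lower on both probe sets (-0.24 and -0.31), and so were CESA7 (-0.27, SE 0.06) and CESA9 (-0.28, SE 0.04), while CESA3 (0.02) and CESA8 (-0.13) were not called. CESA1 was called lower on both probe sets (-0.14 and -0.28) and CESA5 at -0.27, calls lost with the random block.

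EXPA7 read 420.2 to 1342.9 in ZH11 and 72.5 to 709.3 in Huayang, with wide overlap, and differed by -1.41 (SE 0.32, adjusted p 0.00891). Before cold it read 594.2 to 1342.9 in ZH11 and 559.1 to 709.3 in Huayang, with overlap. After cold the readings were 420.2 to 754.7 and 72.5 to 189.7, without overlap, so -1.41 averages unlike gaps. EXPA6 (-0.52, SE 0.10), EXPA10 (-0.50, SE 0.11), EXPB7 (-0.50, SE 0.11) and EXPB2 (-0.37, SE 0.08) were called lower. EXPA5 (-0.61, SE 0.19, adjusted p 0.0406) lost its call with the random block (adjusted p 0.178), as did EXPB8 (-0.29) and EXPB17 (-0.28). Before cold EXPA5 read 247.4 to 313.1 in ZH11 and 241.1 to 285.2 in Huayang, with overlap. Its value of -0.61 averages these with the readings after cold. There every Huayang array lay below the dim limit, which leaves no firm estimate of the gap. EXLA2 was lower on both probe sets (-0.20 and -0.26), the first only without the block. CSLC1 was called lower at -0.27, and CSLC9 at -0.23 lost its call with the block.

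CSLA5 read 158.7 to 192.6 in ZH11 and 262.8 to 328 in Huayang. No Huayang array reached down to ZH11, and the difference was 0.64 (SE 0.06, adjusted p 7.9e-06). BC1L9 was higher in Huayang on both probe sets, by 0.72 (SE 0.13) and 0.69 (SE 0.10). CSLE2 (0.25) was called higher, and CSLD1 (0.24) with dim readings throughout. CSLA9 (0.34, dim) and LOC4346614 (0.19) were called higher, calls lost with the block. CSLA1 was not called at 0.13 (SE 0.13). RGP3 was called lower at -0.44 (SE 0.12, adjusted p 0.0248). Of the other wall lists, 5 of 7 secondary wall partner and 3 of 7 sucrose synthase probe sets were called lower, against 7.99% of all. SUS4 was called higher at 0.40, where 8.93% of all were.

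**Figure D5:**
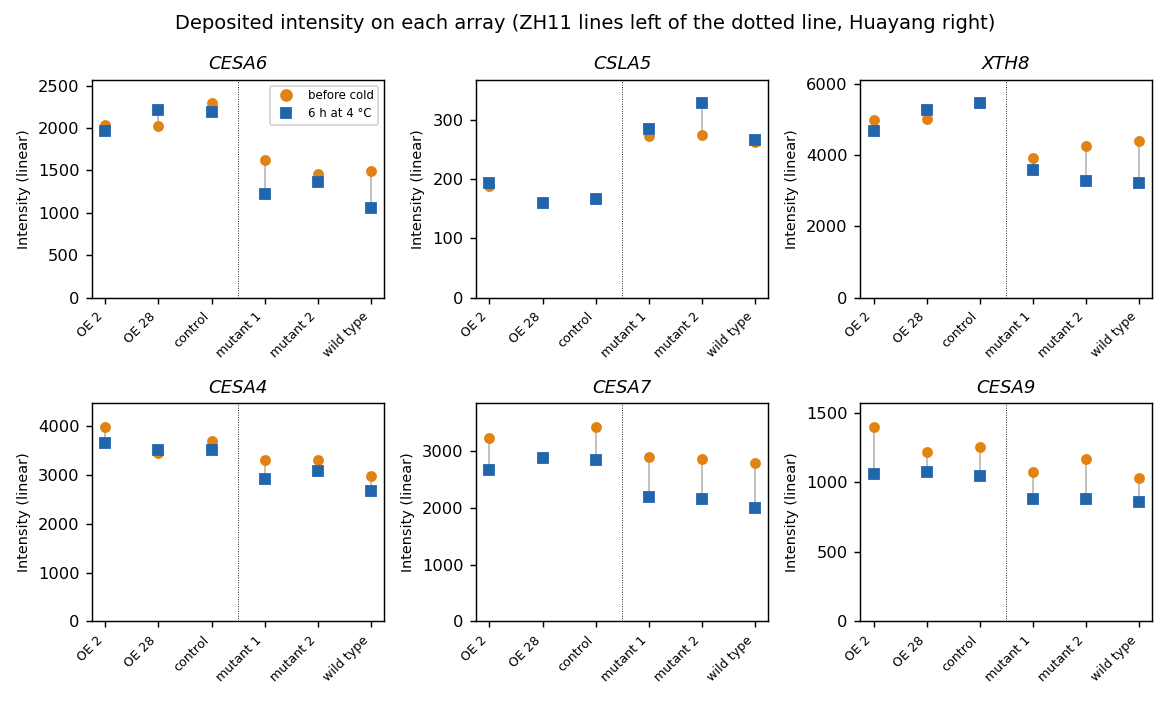
Deposited intensity (y axis, linear, from 0) of CESA6, CSLA5, XTH8, CESA4, CESA7 and CESA9 in each line (x axis); circles are arrays before cold, squares arrays after 6 h at 4 °C, and the dotted line parts ZH11 (left) from Huayang (right). CESA6 and XTH8 were lower and CSLA5 higher on every Huayang array than on any ZH11 array.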

How the data were processed

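Biotin-labelled RNA was hybridised to rice GeneChip arrays, per the labels' protocols. The deposited values were probe set intensity values on a linear scale, from 2.9 to 23434.8, and the sources used here do not state how the authors summarised or normalized them. Control probe sets (123) were left out, and 22436 probe sets were paired with 1 gene by the platform annotation. Gene names and order came from a RefSeq gene table.

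Values were taken as log2(intensity + 16). Quantile normalization was applied since quartiles of the log2 values lay up to 0.237 apart between arrays and a limit of 0.2 had been set. The filter kept 34355 probe sets, those whose mean reached the 40th percentile. They were tested with limma 3.58.1 in R 4.3.3 (lmFit, eBayes with trend). Genotype comparisons used 8 group means (4 residual degrees of freedom), cold within a cultivar and its interaction 4 means (8), and cold over all lines and the cultivar difference an additive model of both (9). The number of arrays limits the precision.

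Each line was sampled at both times, per the labels, which pairs its arrays. The 2 arrays of a line deviated together from their groups, with a correlation across probe sets of 0.517 for OE2 and OE28 and 0.429 for the mutants. Line entered as a random block (correlation 0.334 or 0.421) or a fixed block as an alternative.

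Members, lists and markers were chosen with earlier results of these data known. Named are EXPB7, EXPA5, EXPA7, CSLA1, BC1L9 and 6 cellulose synthases in every comparison. In the mean overexpression, cold and cultivar comparisons the called genes follow, or the 15 largest each way if over 30. Elsewhere the 5 largest called each way are named, or the 3 largest values where under 3 were called. The brightest of each family and genes whose called probe sets disagree are added. Others were named after their values were seen. The dim limit was set after the data were examined.

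On simulated data for 34355 probe sets, 2-fold changes were recovered in 97% for mean overexpression, 100% for cold over all lines and 93% for the cultivar interaction. At 1.5-fold the shares were 81%, 98% and 55%. Each share rests on 100 changed probe sets, whereas 12044 were called for cold over all lines in the measured data. Whether the shares hold for arrays that deviate together within a line was not tested, so they describe the simulated data only. In the measured data the EXPA5 interaction of -1.10, over 2-fold, was not called (limma adjusted p 0.167).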

Additional observations from a re-analysis of the deposited data

Results flagged for a closer look

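The cold response of EXPA5 differed between the cultivars by -1.10 on the log2 scale, Huayang minus ZH11. It stands out because limma with line as a random block passed the threshold (adjusted p 0.0282), while the fit without the block did not (adjusted p 0.167). Without both wild type arrays it was -0.85 (adjusted p 0.65).

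Control probe sets for reporter sequences, which enter no comparison, were bright in some lines. One had a lowest reading of 11860.8 in the overexpression lines against at most 64.3 in the ZH11 control, and read 13835.2 to 17781.9 in the mutants and 2658.5 to 3821.8 in the line labelled wild type. Another had a lowest reading of 7940.3 in the overexpression lines against at most 31.7 in the ZH11 control, and at most 113.5 in the mutants and 42.1 in the wild type.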

How the results depend on the processing

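No called wall probe set changed sign under any alternative. The call of overexpression before cold was 1; it became 2 with a 60th percentile filter, with a pseudocount of 1 or 64 and with the random replicate block, 0 without the variance trend, and 0 to 2 with an array left out. The 2 calls of overexpression after cold became 1 with median centring, 0 without the trend or with the arrays of ZH11 alone, and 0 to 2 with an array left out. In the ZH11 cold response 18 calls became 31 with the random block, 29 with the fixed block, and 11 to 19 with an array left out. In Huayang 24 became 12 without both wild type arrays and 15 to 26 with an array left out. The cultivar interaction went from 0 to 1 with the random block, and the cultivar difference from 29 to 19. The cause of these shifts was not tested, beyond the fewer arrays where some were left out. Scaling moved the split of higher and lower calls in ZH11 from 6 and 12 to 3 and 11 as deposited and 3 and 16 with median centring; before cold in overexpression it moved from 0 and 1 to 1 and 0 with either, and for the mean of both times from 0 and 3 to 1 and 3, the higher call being EXLA1 in each. Under median centring the median of all probe sets before cold in overexpression was 0.10. The remaining counts of calls stayed within 1.5 times of their value, and over all lines the cold calls numbered 29 to 44. Leaving out the wild type or control arrays for the cultivar comparisons was chosen after the data were examined. The 13 of 63 probe sets that were dim on every array carry no established size of change.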
